A study of Mus musculus with 12 samples.

Results

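The alpha-class glutathione transferases (Gsta1, Gsta2, Gsta3 and Gsta4), the microsomal glutathione transferases (Mgst1, Mgst2 and Mgst3) and the kappa-class enzyme Gstk1 were examined in the whole kidney of mice with and without chronic kidney disease (CKD). These 8 genes were taken by name from a table of 22053 gene entries, and each name occurred once. Glutathione transferases join the tripeptide glutathione to electrophiles, such as the aldehydes left by lipid peroxidation, and some of them also reduce lipid hydroperoxides. The alpha-class enzymes are soluble and abundant in liver and kidney. The microsomal enzymes belong to the membrane-bound MAPEG family, which also holds the leukotriene C4 and prostaglandin E synthases, while Gstk1 is a soluble enzyme of mitochondria and peroxisomes with a separate evolutionary origin.

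All mice were C57BL/6 and were studied at 16 weeks of age, after 8 weeks on their diets, with 4 mice in each of 3 groups and 1 RNA sequencing library per mouse. Control mice ate the control diet and were injected with PBS intraperitoneally each week. CKD mice ate the same diet with 0.2% adenine, which damages the tubules and lowers kidney function, and received the same PBS injections. CKD+Fe mice ate the adenine diet and received iron dextran at 0.5 g/kg intraperitoneally each week, so that every comparison of CKD+Fe with CKD was made within adenine-fed mice. No group received iron on the control diet among the libraries analysed here. The mice are named by the numbers in their labels.

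Levels are given as FPKM, the fragments counted per kilobase of a transcript relative to all mapped fragments of the library. They were deposited without read counts, so the depth in reads is unknown. In kidney homogenate, fewer cells of a type and less RNA per cell cannot be told apart. The tissue carried its defining markers, led by Kap and Miox of the proximal tubule, and the summed level of 13 proximal tubule markers (Kap left out for its size and Hnf4a for failed estimates) was 6399 to 8468 FPKM in control mice, 874 to 1790 in CKD mice and 1086 to 3295 in CKD+Fe mice. The summed levels of 10 macrophage markers were 124 to 258, 1811 to 3804 and 1695 to 3793 FPKM in the same order, and those of 10 markers of injured tubules were 675 to 993, 12187 to 21796 and 8914 to 15976 FPKM. Limma called 14 of 15 proximal tubule markers lower and 10 of 10 macrophage markers higher in CKD than in control mice. The part of these shifts in the results on the glutathione transferases was not tested. 3 mice lay farthest from their groups: control 042301, CKD 110310 and CKD+Fe 042702 had 595, 805 and 442 genes that differed at least 2-fold from the rest of their group, against 41 to 225 in the other mice. The adrenal cortex gene Cyp11b2 was listed at 0 in every mouse.

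The sequences of the alpha class set how far its members can be told apart. Gsta1, Gsta2, Gsta4 and their relative Gm10639, known only by a model name, lie within 1 stretch of chromosome 9, in the build GRCm38 at chr9:78230656-78242684 (Gsta1, forward strand), chr9:78289923-78305525 (Gm10639, forward), chr9:78331018-78355788 (Gsta2, reverse) and chr9:78191966-78209348 (Gsta4, forward). Gsta3 lies at chr1:21240589-21265661 on the forward strand. The other members lie apart from these, with Mgst1 at chr6:138140316-138156755 (forward), Mgst2 at chr3:51660360-51682677 (forward), Mgst3 at chr1:167371966-167393841 (reverse) and Gstk1 at chr6:42245935-42250447 (forward). All of them are annotated as protein-coding genes. The first 60 coding bases of each, from the GENCODE M21 transcripts, are shown because they show the near identity directly, with bases that differ from Gsta2 in capitals.
Gsta2: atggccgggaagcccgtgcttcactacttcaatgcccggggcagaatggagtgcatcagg
Gsta1: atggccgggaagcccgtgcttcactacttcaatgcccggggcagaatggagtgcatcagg
Gm10639: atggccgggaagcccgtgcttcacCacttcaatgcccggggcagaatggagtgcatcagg
Gsta3: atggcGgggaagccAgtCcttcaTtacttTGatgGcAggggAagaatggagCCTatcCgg
Gsta4: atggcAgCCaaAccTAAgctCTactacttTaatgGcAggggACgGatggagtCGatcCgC
Gsta1 had 0 differences from Gsta2 in these bases, Gm10639 had 1, Gsta3 had 13 and Gsta4 had 19. Over the whole coding sequence Gsta1 and Gsta2 were 97.5% identical, Gm10639 and Gsta2 98.5%, Gsta3 and Gsta2 74.6%, and Gsta4 and Gsta2 66.2%. The libraries were read for 50 bases from one end. Of the 50-base windows in the listed Gsta1 transcripts, 90.5% also occurred in transcripts of another gene, with 75.7% in Gm3776 and 46.6% in Gsta2. The share was 49.8% for Gsta2 and 49.4% for Gm10639, 0.3% for Gsta3, 0.2% for Mgst2, and 0.0% for Gsta4, Mgst1, Mgst3 and Gstk1. How the authors' counting divided shared reads is not given in the sources used here. The levels of Gsta1, Gsta2 and Gm10639 are therefore uncertain against each other and against Gm3776, which had no tested entry of its own. Nearly all windows of the other 6 members were their own.

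The similarity went on upstream of the transcription start. RefSeq promoter entries (GRCm38.p6) were found for 7 of the 8 members, all but Gsta4. Gsta1, Gm10639 and Gsta2 share many 50-base windows with each other. Gm3776 shares windows with them too and is not shown. The 100 bases before the start that were most alike among Gsta1, Gm10639 and Gsta2 are shown 5′ to 3′ on the strand of each gene. Bases that differ from Gsta1 are in capitals. The stretches lie at chr9:78230531-78230630 (forward), chr9:78289805-78289904 (forward) and chr9:78347187-78347286 (reverse).
Gsta1: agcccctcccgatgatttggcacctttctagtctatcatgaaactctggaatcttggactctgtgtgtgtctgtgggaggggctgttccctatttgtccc
Gm10639: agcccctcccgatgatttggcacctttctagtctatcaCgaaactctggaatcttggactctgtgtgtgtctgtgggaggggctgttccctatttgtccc
Gsta2: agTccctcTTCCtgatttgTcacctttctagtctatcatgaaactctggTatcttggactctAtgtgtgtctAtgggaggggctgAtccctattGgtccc
Gm10639 differed from Gsta1 at 1 of these bases and Gsta2 at 11. The core of the antioxidant response element, the site bound by the transcription factor Nrf2, was searched as TGACNNNGC on both strands. It was present in the entries of Gsta3 and Mgst1, shown here with the matching bases in capitals.
Gsta3: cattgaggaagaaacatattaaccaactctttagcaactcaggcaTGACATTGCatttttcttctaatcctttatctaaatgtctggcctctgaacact
Mgst1: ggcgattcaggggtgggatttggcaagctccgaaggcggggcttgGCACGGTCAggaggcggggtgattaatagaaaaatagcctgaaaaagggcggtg
The Gsta3 stretch is chr1:21240419-21240517 on the forward strand, and its match begins 121 bases before the start of transcription. The Mgst1 stretch is chr6:138140426-138140524 on the forward strand, and its match, on the opposite strand, begins 56 bases before the start. Of all 32851 promoter entries, 12.4% held such a match. The start that RefSeq gives for Mgst1 and for Gsta2 lies inside the gene as listed above, and so do their stretches shown here. A match describes the letters only, and these windows cover 250 bases before and 50 after the start.

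In control kidneys the 8 genes spanned a wide range of levels. Gsta2 had the highest mean, 199 FPKM ± 16.7 (SD, n = 4), followed by Mgst3 at 152 ± 55.5, Mgst1 at 112 ± 16, Gstk1 at 102 ± 10.1, Gsta3 at 74.0 ± 22.2 and Gsta4 at 33.5 ± 7.82 FPKM. Gsta1 and Mgst2 were near the bottom of the scale at 0.473 ± 0.221 and 0.320 ± 0.281 FPKM, and the ranges of these 2 overlapped. Neighbours in the order from Gsta2 to Gsta3 also overlapped in their ranges, while every control value of Gsta4 lay below every control value of Gsta3. In CKD mice the order of the means was Mgst1, Gsta2, Mgst3, Gsta4, Gstk1, Gsta3, Gsta1 and Mgst2, and the lowest Mgst1 value, 193 FPKM, lay above the highest Gsta2 value, 177 FPKM. In CKD+Fe mice it was Mgst1, Gsta2, Mgst3, Gsta4, Gsta3, Gstk1, Gsta1 and Mgst2, and the ranges of Mgst1 and Gsta2 overlapped there.

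**Figure D1:**
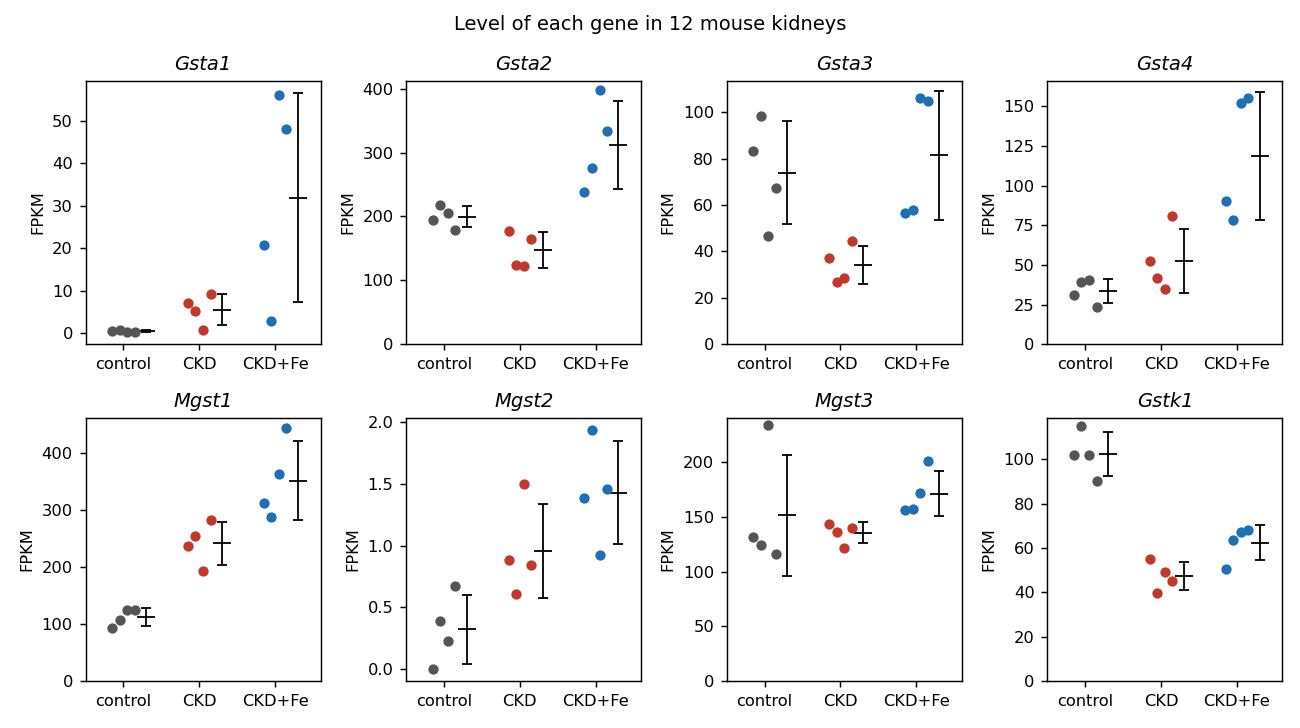
Level of each gene in FPKM (vertical axes, each from 0) in 4 control, 4 CKD and 4 CKD+Fe mice. Points are mice, and the bar beside them is the mean with the SD. Gstk1 was lower in every CKD mouse than in every control mouse, Mgst1 was higher in every CKD mouse, and Gsta1 reached 56.2 FPKM in 1 CKD+Fe mouse.

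CKD against control asks what the adenine diet did to these enzymes. By limma on log2(FPKM + 1), Mgst1, Gsta1 and Mgst2 were higher and Gsta2, Gsta3 and Gstk1 were lower in CKD at an adjusted p below 0.05, and Gsta4 and Mgst3 did not pass. Over all 13148 genes tested 54.6% were called higher and 13.3% lower, and the median log2 fold change of all genes was 0.50. The 3 of 8 members called lower is a larger share than that of all genes. The 3 of 8 called higher include Gsta1 and Mgst2. Both passed the filter on low values (1 FPKM or more in 4 mice) only through adenine-fed mice. The count called higher is therefore not compared with the share of all genes. Median-of-ratios rescaling, which sets the typical gene level between mice, moved the median of all genes to 0.01 and the share of higher among called genes from 80.4% to 49.5%. After it, Mgst1 alone was called higher and Gsta2, Gsta3, Mgst3 and Gstk1 were called lower. Of all 13148 genes 3781 were then called higher and 3856 lower. After quantile normalization Mgst1 was called higher and Gsta3 and Gstk1 lower, with 3060 of all genes called higher and 3363 lower. Mgst1, Gsta3 and Gstk1 thus kept their calls under all 3 scalings.

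**Figure D2:**
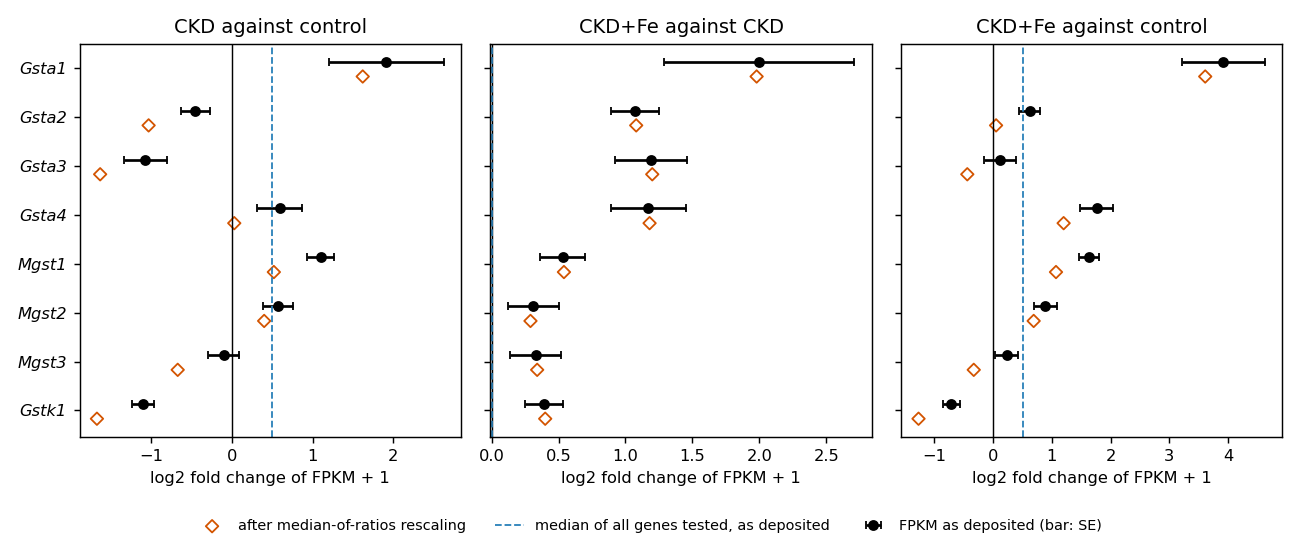
Log2 fold changes of FPKM + 1 for the 8 genes in 3 comparisons. Filled circles with bars are the values as deposited with their SE, open diamonds are the values after median-of-ratios rescaling, and the dashed line is the median of all genes tested. The diamonds lie left of the circles where control mice are one side of the comparison, and circles and diamonds nearly coincide in CKD+Fe against CKD, where all 8 genes lie above 0.

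Gsta2, Gsta3 and Gstk1 made up the members that fell. Gstk1 measured 102, 115, 102 and 90.4 FPKM in control mice 012811, 012822, 042301 and 042310, and 55.2, 39.8, 49.0 and 45.3 FPKM in CKD mice 021320, 022301, 110310 and 120102. The 2 groups did not overlap, and the fold change on the log2 scale was -1.10 (SE 0.14, limma adjusted p = 1.52e-05). Gsta3, a broad detoxifying enzyme that also acts in steroid isomerization, measured 83.3, 98.5, 46.6 and 67.5 FPKM in the control mice and 37.1, 26.7, 28.5 and 44.5 FPKM in the CKD mice, in the same order of mice. Every CKD value lay below every control value, with 042301 the lowest control, and the log2 fold change was -1.07 (SE 0.27, limma adjusted p = 0.00309). Gsta2 measured 195, 218, 206 and 179 FPKM in control and 177, 124, 122 and 165 FPKM in CKD kidneys. These groups were separated by 179 against 177 FPKM only, and the log2 fold change of -0.45 (SE 0.18, limma adjusted p = 0.0351) was the smallest of the 3. It lost its call without any 1 of control 012811, 012822 or 042301 or CKD 022301 or 110310, with an adjusted p of up to 0.101, and was -0.35 (limma adjusted p = 0.0796) without the 3 distant mice. Gsta2 also shares 49.8% of its windows with other genes.

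Mgst1 was the abundant member that rose. This enzyme of the endoplasmic reticulum and the outer mitochondrial membrane conjugates glutathione and reduces lipid hydroperoxides. It measured 92.4, 107, 125 and 125 FPKM in the control mice and 237, 254, 193 and 283 FPKM in the CKD mice. The lowest CKD value, that of 110310, was well above the highest control value, and the log2 fold change was 1.10 (SE 0.17, limma adjusted p = 8.69e-05). It was 0.52 (limma adjusted p = 0.0143) after median-of-ratios rescaling and 1.26 (limma adjusted p = 6.17e-05) without the 3 distant mice. Mgst3, which also handles lipid peroxides and leukotrienes, measured 132, 124, 234 and 116 FPKM in control and 144, 136, 122 and 140 FPKM in CKD kidneys. The control mouse 042301 stood apart from the other controls, the groups overlapped, and the log2 fold change was -0.10 (SE 0.19, limma adjusted p = 0.654). The sign of the difference turned to 0.13 (limma adjusted p = 0.370) without 042301, and after median-of-ratios rescaling it was -0.67 (limma adjusted p = 0.00735). The same mouse had the highest summed level of 5 collecting duct markers, 1952 FPKM against 443, 550 and 614 FPKM in the other controls, and of 9 urothelium and papilla markers, 158 FPKM against 3.27, 3.89 and 63.3 FPKM. The part of these markers in its Mgst3 level was not tested.

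Gsta4, the member specialised for the lipid aldehyde 4-hydroxynonenal, measured 30.8, 39.0, 40.6 and 23.7 FPKM in control and 52.6, 41.9, 34.8 and 80.6 FPKM in CKD kidneys. CKD 110310 lay within the control range and the other CKD mice lay above it. The log2 fold change was 0.59 (SE 0.28, limma adjusted p = 0.0763), close to the median of all genes. It was 0.76 (limma adjusted p = 0.0316) without 110310 and 0.86 (limma adjusted p = 0.0224) without the 3 distant mice. After median-of-ratios rescaling it was 0.03 (limma adjusted p = 0.941), and after quantile normalization 0.47 (limma adjusted p = 0.232).

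Gsta1 and Mgst2 passed the filter on low values (1 FPKM or more in 4 mice) only through the adenine-fed mice, since no control mouse reached 1 FPKM of either. Their calls against control therefore add no support. Gsta1 measured 0.648, 0.675, 0.240 and 0.329 FPKM in control and 7.18, 5.17, 0.774 and 9.19 FPKM in CKD kidneys. The 3 CKD mice other than 110310 lay far above the controls, and 110310 lay just above them. The log2 fold change was 1.91 (SE 0.71, limma adjusted p = 0.0283) and lost its call without any 1 of control 042301 or 042310 or CKD 021320, 022301 or 120102, with an adjusted p of up to 0.0807. Mgst2, a microsomal enzyme that can make leukotriene C4, measured 0, 0.385, 0.226 and 0.669 FPKM in control and 0.881, 0.608, 1.5 and 0.845 FPKM in CKD kidneys. The groups overlapped and all values were low, with a log2 fold change of 0.57 (SE 0.19, limma adjusted p = 0.0165) that was 0.40 (limma adjusted p = 0.114) after median-of-ratios rescaling, -0.05 (limma adjusted p = 0.875) after quantile normalization and not called without control 012811. The relative Gm10639 measured 5.24, 4.55, 3.94 and 3.66 FPKM in control and 7.79, 8.54, 1.20 and 12.3 FPKM in CKD kidneys. CKD 110310 was again the lowest mouse, below all controls, and the log2 fold change was 0.41 (SE 0.50, limma adjusted p = 0.485).

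CKD+Fe against CKD asks what systemic iron added in adenine-fed mice. The mean of every member was higher with iron, but limma called 0 of the 8 members at an adjusted p below 0.05. Among all genes 0.00761% were called higher and 0% lower, which is Fabp1, a fatty acid binding protein, alone (log2 fold change 3.30, SE 0.42, limma adjusted p = 0.0284). At an unadjusted limma p below 0.05 there were 431 genes higher and 359 lower among 13148. Of the 8 members 6, Gsta1, Gsta2, Gsta3, Gsta4, Mgst1 and Gstk1, were among the higher ones. Gsta1 reached 1 FPKM in 3 CKD and 4 CKD+Fe mice, and Mgst2 in 1 and 3. Neither gene would have passed the filter without the CKD+Fe mice, where their means were highest, so they add no support here either. The median log2 fold change of all genes was near 0 as deposited, and no member had a different sign after median-of-ratios rescaling.

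The alpha class had the largest differences between CKD+Fe and CKD. Gsta2 measured 239, 276, 398 and 334 FPKM in CKD+Fe mice 042702, 062910, 111710 and 122320, above every CKD mouse and also every control mouse. Its log2 fold change over CKD was 1.07 (SE 0.18, unadjusted p = 3.15e-05, limma adjusted p = 0.104). It passed with array quality weights, which give less weight to mice far from their groups (limma adjusted p = 0.00990). It also passed without CKD+Fe 042702 (log2 fold change 1.19, limma adjusted p = 0.0280) and without the 3 distant mice (limma adjusted p = 0.0304). In the other 11 fits with a mouse left out it was not called, with a limma adjusted p of up to 0.471. Fitted on the CKD and CKD+Fe mice alone, it was not called either (limma adjusted p = 0.414). Gsta3 measured 56.6, 58.0, 106 and 105 FPKM in the CKD+Fe mice, all above the CKD mice. Mice 042702 and 062910 lay within the control range and the other two above it. Its log2 fold change was 1.19 (SE 0.27, limma adjusted p = 0.262), and 1.30 (limma adjusted p = 0.0268) with array quality weights. No fit with a mouse left out called Gsta3, with a limma adjusted p of up to 0.988. Gsta4 measured 90.1, 78.1, 152 and 155 FPKM in the same mice. Only CKD 120102, at 80.6 FPKM, lay above a CKD+Fe value. The log2 fold change was 1.17 (SE 0.28, limma adjusted p = 0.348), or 1.18 (limma adjusted p = 0.0403) with array quality weights. Gsta4 was likewise not called with any mouse left out, with a limma adjusted p of up to 0.999.

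Gsta1 measured 20.7, 2.89, 56.2 and 48.0 FPKM in the CKD+Fe mice, a 19.5-fold spread within the group. Mouse 062910 lay within the CKD range and the other 3 lay above it, with a log2 fold change over CKD of 2.0 (SE 0.71, limma adjusted p = 0.648). Gm10639 measured 17.1, 8.43, 43.1 and 20.4 FPKM, with 062910 again the lowest, and its log2 fold change was 1.51 (SE 0.50, limma adjusted p = 0.587). These genes share many of their 50-base windows with Gsta2, with Gm3776 and with each other. A change in one of these genes and a change in how shared reads were divided therefore cannot be told apart.

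Mgst1 measured 313, 288, 363 and 445 FPKM in the CKD+Fe mice, all above the highest CKD value of 283 FPKM. Its log2 fold change over CKD was 0.53 (SE 0.17, limma adjusted p = 0.509). Mgst3 measured 156, 157, 172 and 201 FPKM, also above every CKD mouse, with a log2 fold change of 0.33 (SE 0.19, limma adjusted p = 0.905). Gstk1 measured 50.7, 63.6, 67.3 and 68.2 FPKM, where 042702 lay within the CKD range and the other 3 above it, with a log2 fold change of 0.39 (SE 0.14, limma adjusted p = 0.648). Mgst2 measured 1.39, 1.94, 0.923 and 1.46 FPKM, overlapping the CKD mice, with a log2 fold change of 0.31 (SE 0.19, limma adjusted p = 0.912). In exact two-sided permutation tests over the 8 mice of this comparison Gsta2, Gsta3, Mgst1 and Mgst3 reached p = 0.0286, the smallest that 70 arrangements allow, Gsta4 and Gstk1 gave 0.0571, Gsta1 0.114 and Mgst2 0.171. These p values are raw and do not pass an adjustment over all genes. The share of all genes whose CKD+Fe and CKD mice did not overlap is not given here. The number of members at the smallest p is therefore not read as a result about them.

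Mice 111710 and 122320 held the 2 highest values of the CKD+Fe group for every member but Mgst2, 7 of 8, and for 21.7% of all 13132 genes tested that had no failed value. Markers of adipocytes moved with the same mice: the summed level of 9 adipocyte genes, led by Cfd, was 20.8 FPKM in 111710 and 136 FPKM in 122320, against 1.98 and 1.74 FPKM in 042702 and 062910, 1.10 to 2.56 FPKM in CKD mice and 0.584 to 17.2 FPKM in control mice, where 012822 was the highest. None of the 9 genes passed the filter, and their part in the result was not tested. The summed proximal tubule level was 1086, 3295, 2726 and 2221 FPKM in CKD+Fe mice 042702, 062910, 111710 and 122320, so 062910, with the highest value, had the lowest level in the group of Gsta1, Gsta4 and Mgst1, and 042702, with the lowest value, had the lowest level of Gsta2, Gsta3, Mgst3 and Gstk1. The part of the proximal tubule level in these differences was not tested. Among CKD mice 110310 was the lowest for Gsta1, Gsta2, Gsta4, Mgst1 and Mgst3, and it was the highest for Mgst2.

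CKD+Fe against control gives the whole difference between iron-treated diseased mice and healthy mice. Gsta1, Gsta2, Gsta4, Mgst1 and Mgst2 were called higher by limma and Gstk1 lower, 5 and 1 of the 8 members, where 54.4% of all genes were called higher and 11.0% lower. Mgst1 was higher by 1.63 on the log2 scale (SE 0.17, limma adjusted p = 5.46e-06) and Gsta4 by 1.76 (SE 0.28, limma adjusted p = 1.34e-04), and both remained called after median-of-ratios rescaling, at 1.07 (limma adjusted p = 1.27e-04) and 1.20 (limma adjusted p = 0.00246). The Gsta2 difference was 0.62 (SE 0.18, limma adjusted p = 0.00723), near the median of 0.50 of all genes. It was 0.05 (limma adjusted p = 0.824) after the rescaling, but 0.93 (limma adjusted p = 0.00247) after quantile normalization. Gsta1 differed by 3.92 (SE 0.71, limma adjusted p = 3.52e-04) and Mgst2 by 0.89 (SE 0.19, limma adjusted p = 0.00123), both with the limit on their filter given above, and Mgst2 was at 0.22 (limma adjusted p = 0.467) after quantile normalization. Gstk1 was still lower, at -0.71 (SE 0.14, limma adjusted p = 5.69e-04), and no CKD+Fe mouse reached the lowest control mouse. Gsta3 at 0.12 (SE 0.27, limma adjusted p = 0.699) and Mgst3 at 0.23 (SE 0.19, limma adjusted p = 0.304) did not pass, and both had a negative sign after the rescaling. Without control 042301 the Mgst3 difference was 0.46 (limma adjusted p = 0.00581). This comparison and CKD against control share the same control mice.

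The 8 genes together reached 674 FPKM ± 68.1 (SD, n = 4) among controls, 665 ± 95.3 among CKD mice and 1131 ± 237 among CKD+Fe mice. Ranges of 603 to 755 and 551 to 770 FPKM overlapped between control and CKD, and the CKD+Fe range of 926 to 1357 FPKM lay above both. This order depends on the scaling. After median-of-ratios rescaling, chosen for the sum after seeing the data, the sums were 876 ± 75.0, 579 ± 79.3 and 993 ± 207, where the CKD range of 506 to 673 lay below the control range of 791 to 955 and the CKD+Fe range of 772 to 1187 overlapped the control range. The makeup of the sum differed between the groups. Mgst1 made up 16.8% ± 2.80 of it among controls, 36.4% ± 3.04 with CKD and 31.3% ± 2.70 with CKD+Fe. Gstk1 made up 15.2% ± 1.29, 7.22% ± 1.37 and 5.62% ± 0.850, and Gsta3 11.1% ± 3.5, 5.11% ± 0.634 and 7.04% ± 0.998. Gsta2 held 29.7% ± 1.72, 22.1% ± 2.16 and 27.6% ± 2.86, and Gsta4 4.93% ± 0.727, 7.70% ± 1.90 and 10.3% ± 1.48. Gsta1 made up 0.0711% ± 0.0336, 0.791% ± 0.460 and 2.59% ± 1.74 of the sum, and Mgst2 stayed at or below 0.272% in every mouse.

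**Figure D3:**
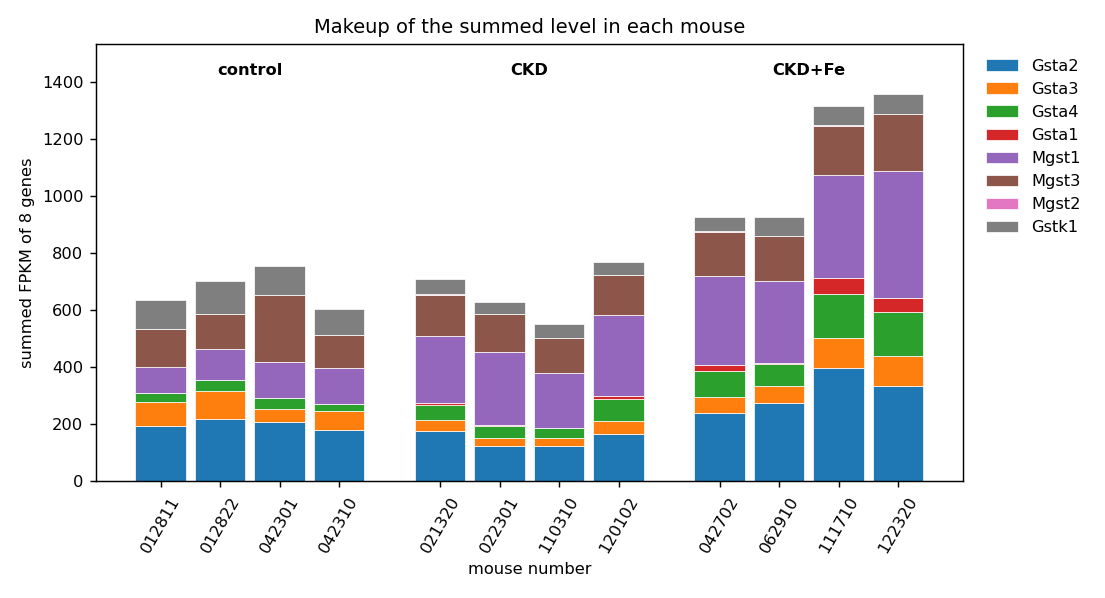
Stacked bars of FPKM for the 8 genes in each of 12 mice, grouped as control, CKD and CKD+Fe, with the mouse number on the horizontal axis. As deposited, the bars of CKD mice are about as tall as those of control mice with a larger Mgst1 part, and those of CKD+Fe mice 111710 and 122320 are the tallest.

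A scaling between mice cancels in the ratio of 2 members within a mouse, except through the pseudocount of 1, which matters for Gsta1 and Mgst2 with their levels near 0, and 5 pairs were compared in 3 comparisons by exact two-sided permutation tests, 15 in all. For Mgst1 to Gstk1 the log2 ratio averaged 0.13 ± 0.30 among controls, 2.33 ± 0.36 among CKD mice and 2.47 ± 0.23 among CKD+Fe mice (SD, n = 4). In single mice it was -0.14, -0.11, 0.29 and 0.47 in control and 2.08, 2.64, 1.95 and 2.62 in CKD kidneys, with a wide gap between the groups. Gsta3 to Gsta4 gave 1.10 ± 0.60, -0.56 ± 0.24 and -0.54 ± 0.10 in the same order of groups. Control 042301 was the nearest to the adenine-fed mice, at 0.19 against 1.31 to 1.47 in the other controls. Mgst1 to Mgst3 gave -0.38 ± 0.43, 0.82 ± 0.16 and 1.02 ± 0.12. These 3 ratios separated CKD from control and CKD+Fe from control without overlap, each with an exact permutation p = 0.0286, the smallest possible. It was 0.0536 after adjustment over the 15 tests, which does not pass 0.05. Mgst1 was higher and Gstk1 lower in every adenine-fed mouse than in every control mouse. The separation of the Mgst1 to Gstk1 ratio follows from these values and is not separate support. Gsta2 to Gsta1 gave 7.10 ± 0.21, 4.73 ± 0.94 and 3.80 ± 1.60 and did not overlap between control and adenine-fed mice either, but Gsta1 passed the filter only through the adenine-fed mice, the pseudocount holds up its control level and the 2 genes share reads, so that this separation adds no support. The ratio of Mgst2 to Mgst3 overlapped in every comparison, with exact permutation p from 0.114 to 0.971. Between CKD+Fe and CKD all 5 ratios overlapped, with exact permutation p from 0.143 to 0.971 and differences of 0.02 for Gsta3 to Gsta4, 0.14 for Mgst1 to Gstk1, 0.20 for Mgst1 to Mgst3, -0.02 for Mgst2 to Mgst3 and -0.94 for Gsta2 to Gsta1.

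**Figure D4:**
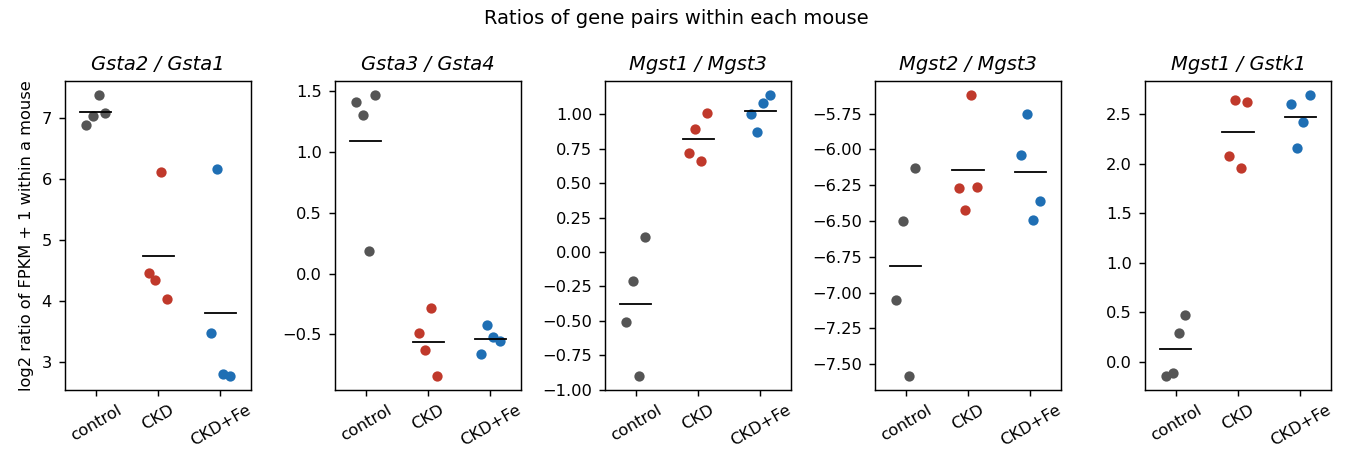
Log2 ratio of FPKM + 1 of gene pairs within each mouse (points) with the group mean (line) for control, CKD and CKD+Fe mice. Vertical axes differ between panels and do not start at 0. In 4 of the panels the control mice lie apart from all adenine-fed mice, and the CKD and CKD+Fe points overlap in every panel.

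The rest of the glutathione system gives the setting of these genes in CKD against control, where 54.6% of all genes were called higher and 13.3% lower. The 3 other MAPEG genes were all called higher, led by Alox5ap, the activating protein of 5-lipoxygenase, at 2.58 (SE 0.23, limma adjusted p = 1.01e-06) and the leukotriene C4 synthase Ltc4s at 0.89 (SE 0.21, limma adjusted p = 0.00225) on the log2 scale, and 1 of 3 was called after median-of-ratios rescaling. Of 14 tested transferases of other classes 3 were higher and 5 lower. Hpgds, the prostaglandin D synthase, was higher by 2.35 and the omega-class Gsto1 by 1.76, and the zeta-class Gstz1 was at -1.62 and the mu-class Gstm1 at -1.07. Among 22 tested genes of glutathione supply, recycling and conjugate breakdown 4 were higher and 16 lower, with Dpep2 at 3.03 and Ggt5 at 1.54, and Ggt1, the gamma-glutamyltransferase of the brush border, at -2.33 and Ggct at -2.27. The glutathione peroxidases Gpx7 (1.99) and Gpx8 (1.20) were higher and Gpx3 (-0.93) and Gpx6 (-0.90) were among 4 of 6 that were lower, while after quantile normalization 3 of the 6 were higher and 1 lower, with a median log2 fold change of 0.26. Of 6 tested exporters of conjugates 5 were higher, with Abcc3 at 3.13 and Abcc4 at 1.49, and Abcc2 was lower at -0.86, and 3 were higher after median-of-ratios rescaling. Nrf2 and its targets outside the transferases, 17 genes of which some also stand in the other lists, had 7 higher, with Abcc4 and Slc7a11 (1.48) in front, and 4 lower, with Me1 (-2.24) and Gclm (-1.64) in front. After median-of-ratios rescaling these became 3 higher and 8 lower, and the other transferase classes became 3 higher and 9 lower. Of all 13148 genes 3781 were called higher and 3856 lower after that rescaling, and 3060 and 3363 after quantile normalization. As deposited, median log2 fold changes were 0.89, -0.14, -0.74, -0.80, 1.30 and 0.13 for the 6 lists in this order, against 0.50 for all genes. Hpgds, Dpep2, Abcc3 and Slc7a11 had control means below 1 FPKM, so they passed the filter only with the help of adenine-fed mice. As for Gsta1 and Mgst2, their calls against control therefore add no support. They remain in the counts of the lists given here. With iron, 0 genes of these lists were called in CKD+Fe against CKD by limma. At an unadjusted limma p below 0.05, 1, 3, 0, 1, 2 and 5 genes were higher. These were out of 3, 14, 22, 6, 6 and 17 tested, where 431 of all 13148 genes were higher. Genes lower at that p are not given for the lists.

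Genes whose levels over the 12 mice were most like those of each member were found by the root mean square (RMS) difference between log2(FPKM + 1) profiles, each centred on its own mean. All 12 mice share the group differences, so that likeness here includes them. Nqo1, a quinone reductase, lay nearest to Gsta2, at an RMS difference of 0.20 where the median over all genes was 0.62, followed by RP23-234F23.1 at 0.23. Nqo1 had means of 64.2, 47.9 and 114 FPKM in control, CKD and CKD+Fe mice. For Gsta4 they were Aldh1a1 (0.28), which oxidises retinal and other aldehydes, and the carbonyl reductase Cbr1 (0.39), which had means of 32.1, 66.9 and 153 FPKM, against a median of 0.78. Gsta3 was nearest to Cyp2d26 (0.20) and Acaa1b (0.27), a peroxisomal thiolase, against 0.82. Mgst1 was nearest to the exporter Abcc4 (0.19) and the transporter Slc38a6 (0.20), against 0.59. Gstk1 lay nearest to Decr1 (0.10) and Acadl (0.11), both enzymes of mitochondrial fatty acid oxidation, against 0.76, and Decr1 had means of 104, 48.4 and 67.4 FPKM. The nearest genes to Gsta1 were Cyp4a14 (0.70) and Ugt1a2 (0.77), against 1.77, and the profile of Gsta1 itself had an RMS of 1.92 around its mean, where those of the other members had 0.29 to 0.83, so the RMS differences are not ranked between members. Mgst3 was nearest to Rap1gap and Pttg1 (both 0.13), against 0.48, and Mgst2 to Smyd3 (0.21) and Gpr171 (0.23), against 0.47.

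**Figure D5:**
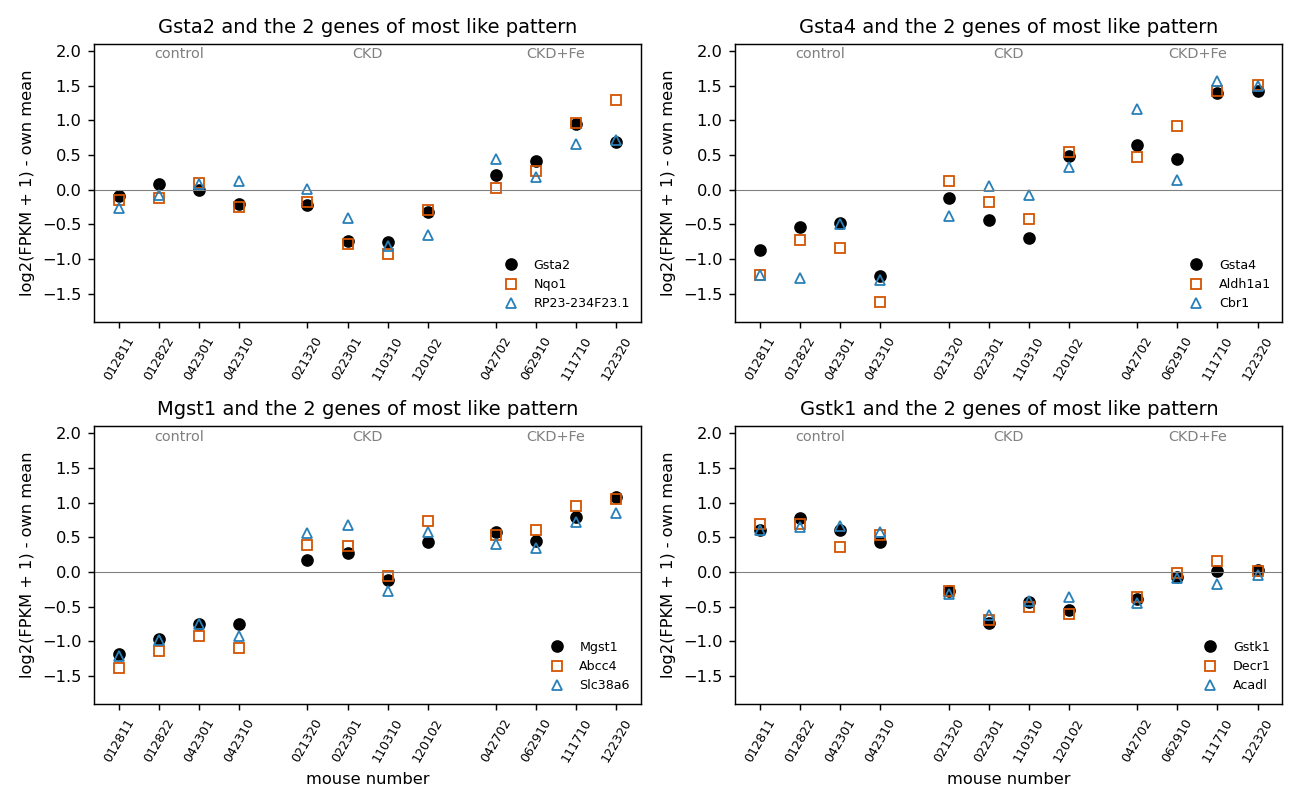
Log2(FPKM + 1) minus the mean of each gene over 12 mice (vertical axes) for Gsta2, Gsta4, Mgst1 and Gstk1 (filled circles) and the 2 genes of most like pattern for each (open symbols), with mice on the horizontal axis by group. On average Gsta2 and its neighbours are lowest in CKD mice, Gsta4 and Mgst1 with theirs are lowest in control mice, and Gstk1 with its neighbours is highest in control mice.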

How the data were processed

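The authors prepared stranded mRNA libraries from whole kidney and sequenced them with single-end reads of 50 bases. The submitters' processing notes name bcl2fastq 2.19, STAR 2.5.2, Cufflinks 2.1.1 and GRCm38, and the annotation version is not given in the sources used here. The authors deposited FPKM per gene and mouse, relative to the mapped reads of each mouse, so a table sum (503438 to 707843 FPKM) is not a depth. Steps between low values determined relative depth only weakly, and no count test was made. There were 30 values marked as failed estimates, in 17 entries, and these were treated as missing.

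Log2(FPKM + 1) of the 13148 entries that reached 1 FPKM in 4 or more mice was fitted with limma 3.58.1 in R 4.3.3 (3 group means, 12 mice, variance trend), after tests on simulated data. P values were two-sided and Benjamini-Hochberg adjusted over all entries tested, with a threshold of 0.05. Without information on cultures or litters, they measure the spread between these mice. The members and gene lists were chosen with earlier results of these data known. Every member is named, with from each list the 2 largest called rises and falls, the 2 most abundant genes of each marker list, and the 2 genes of most like pattern. Fabp1 was named after its value was seen. Promoters came from RefSeq (GRCm38.p6) and coding sequences from GENCODE M21, of which 99.9% of 21810 matched entries overlap the deposited positions. Protein sequences were not used here.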

Additional observations from a re-analysis of the deposited data

Results flagged for a closer look

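Mgst3 in control mouse 042301 measured 234 FPKM, while the other control mice measured 116 to 132 FPKM. Its gap to the nearest of them was 0.869 of the range of the group, above Dixon's 95% critical value for a group of 4. There were 24 groups of 4 mice checked, 3 for each of the 8 genes, and chance alone marks about 1 in 20 groups in this way. The cause was not tested.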

How the results depend on the processing

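Of the counts of called members over all settings and comparisons 126 stayed within 1.5 times the reported count and 6 moved. The count called higher in CKD against control was 1 after median-of-ratios rescaling and 1 after quantile normalization. The count called higher in CKD+Fe against CKD was 3 with array quality weights, 3 at an adjusted p under 0.5 (the cutoff in the study's sequencing methods) and 1 without the 3 distant mice, an alternative chosen after seeing the data. It ranged from 0 to 1 with each mouse left out, where leaving out CKD+Fe 042702 gave a call for Gsta2. The shares of all genes called in these settings of CKD+Fe against CKD are not given here. These counts are therefore not read as results about the members. Single members changed sign in Mgst2 in CKD against control (-0.05 after quantile normalization), in Mgst3 in CKD against control (0.19 after quantile normalization, 0.10 with array quality weights, 0.18 without the 3 distant mice, -0.21 to 0.13 with each mouse left out) and in CKD+Fe against control in Gsta3 (-0.44 after median-of-ratios rescaling, -0.08 to 0.28 with each mouse left out) and Mgst3 (-0.33 after that rescaling). Taken from group means of FPKM, the log2 ratio difference of Gsta2 to Gsta1 was -4.00 in CKD against control and -5.43 in CKD+Fe against control, and that of Mgst2 to Mgst3 was 1.74 and 1.98, and 0.24 in CKD+Fe against CKD, where a pseudocount of 0.1 gave 0.22. After median-of-ratios rescaling, chosen for ratios and summed levels after seeing the data, the Mgst2 to Mgst3 difference was 1.07 in CKD against control (exact permutation p = 0.0286), while the other 14 ratio comparisons kept their direction and their side of 0.05, and the mean summed level of controls moved from 674 to 876. With each mouse left out, the Gsta2 to Gsta1 difference ranged from -2.82 to -2.13 in CKD against control, -1.72 to -0.48 in CKD+Fe against CKD and -4.08 to -2.96 in CKD+Fe against control. The Gsta3 to Gsta4 difference ranged from -1.96 to -1.53, -0.07 to 0.12 and -1.94 to -1.51, and that of Mgst2 to Mgst3 from 0.42 to 0.90, -0.15 to 0.16 and 0.40 to 0.88, in the same order. In 4 of 8 such cases each, the exact permutation p of the Gsta2 to Gsta1 and Gsta3 to Gsta4 differences from control went from 0.0286 to 0.0571 with the groups still apart. It went to 0.0286 without CKD+Fe 062910 for Gsta2 to Gsta1 in CKD+Fe against CKD, and without control 042310 for Mgst2 to Mgst3 in both comparisons with control. Mgst2 was below the filter in 4 of the 12 fits with a mouse left out. Beyond the effect of each setting's own construction, the cause was not tested. No paired analysis was possible because the groups share no replicate numbers. The depth in reads is unknown, so values near 0 carry no counting limit.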
